A study of Homo sapiens with 8 samples.

Results

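hCMEC/D3 cells are immortalised endothelial cells from human brain microvessels, used in culture as a stand-in for the cells that line brain capillaries. The deposited RNA sequencing series holds 8 replicate libraries of polyadenylated RNA from this line, all of 1 group, with no treatment, time point or second cell type in the labels. The libraries described here are replicates 2, 7 and 8, which were selected because ribosomal protein genes took the highest share of their counts, and they are set against the other 5 (replicates 1, 3, 4, 5 and 6). The labels give no such groups: the split is post hoc, was made from the same measurements that are described below, and covers 3 of 8 libraries. Nothing in the labels tells whether these were separate cultures or repeat preparations of 1 culture.

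Cytosolic ribosomes are built from RNA and a fixed set of ribosomal proteins, whose mRNAs are mostly short and abundant. Ribosomes are known to be produced in proportion to the demand for protein synthesis. Conditional quantile normalisation (CQN), which the authors applied, fits and removes each library's dependence on gene length and GC content.

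The share of counts in 79 ribosomal protein genes was 3.91% in replicate 1, 3.95% in replicate 3, 3.94% in replicate 4, 4.45% in replicate 5 and 3.92% in replicate 6. In the chosen libraries the share was 6.23% in replicate 2, 5.76% in replicate 7 and 7.58% in replicate 8. The 95% Wilson intervals were narrow (5.76 to 5.77 in replicate 7 and 4.44 to 4.45 in replicate 5, the libraries just inside and just outside the choice) and cover counting error only. Total counts ran from 69388544 to 90205244 per library, all counts were even, and the 3 chosen libraries had the highest totals. Genes entered the description when they had a CQN value and at least 20 counts in all 8 libraries, which held for 13727 of the 13962 genes with a CQN value and of the 23346 listed. Of the genes whose lowest count was 20 to 38, 46 of 887 lay higher and 86 lower in the chosen libraries, and of the 192 just outside the minimum (lowest count 10 to 18) 3 lay higher and 36 lower.

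Throughout, a gene is called higher where all 3 chosen libraries lay above all 5 others on CQN values, and lower where all 3 lay below all 5. Differences are the mean of replicates 2, 7 and 8 minus the mean of the other 5, in log2 units. Because the libraries were picked on these data, no test was made and none of the counts below is evidence that the groups are real. By this definition 2195 genes were higher (16.0% of 13727) and 1922 were lower (14.0%). Counts given for gene lists below are to be read beside these shares of all genes. At least 2-fold differences were less common and lopsided, with 78 genes higher (0.568%) and 252 lower (1.84%). With a minimum of 100 counts in every library these were 38 and 144.

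**Figure D1:**
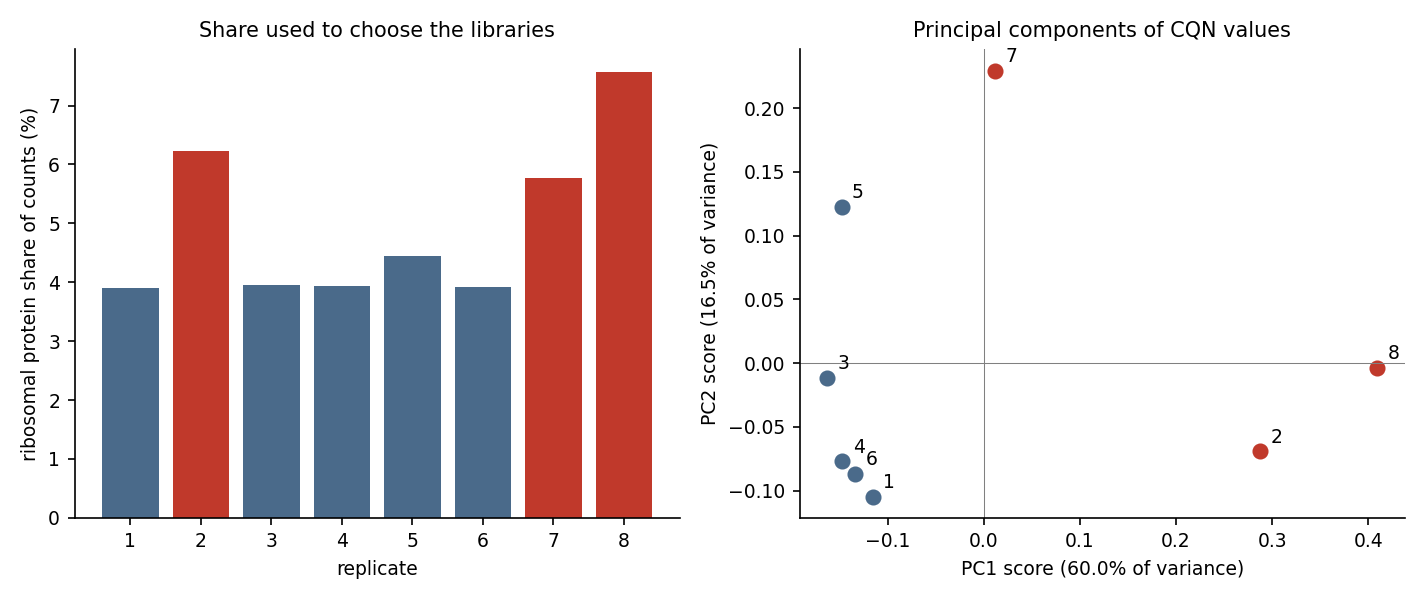
Left, the share of all counts in ribosomal protein genes (%) in each replicate. Right, scores on the first 2 principal components of the CQN values of 13727 genes. Red marks replicates 2, 7 and 8 and blue the other 5. Replicates 2 and 8 stand far to the right on PC1, while replicate 7 lies near 0 on PC1 and highest on PC2.

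The 3 libraries were not alike among themselves. The first principal component of the CQN values held 60.0% of the variance, and replicates 2 and 8 scored 0.29 and 0.41 on it, while replicate 7 scored 0.01 and the other 5 between -0.16 and -0.12. Replicate 7 instead stood out on the second component (16.5% of the variance) at 0.23, with replicate 5 next at 0.12. Across genes, Pearson's r of CQN values was 0.994 between replicates 2 and 8 and also 0.994 between replicates 5 and 7, but 0.985 between 2 and 7 and 0.981 between 7 and 8 (13727 genes, which are not independent, described without a p-value). A 2-fold or larger difference was seen for 141 genes between replicates 2 and 8, for 149 between 5 and 7, and for 780 between 7 and 8. Pairs within the other 5 differed that much at 59 to 187 genes. Among the 2195 higher genes, replicate 8 was the farthest from the mean of the 5 in 70.0% and replicate 7 the nearest in 66.6%. A call needs every chosen library beyond all the others, so leaving out any library can only add calls. Leaving out any replicate but 7 gave 2268 to 2618 higher and 1993 to 2312 lower genes. Without replicate 7 the counts of higher and lower genes went from 2195 and 1922 to 4195 and 3621. The 2-fold counts went from 78 and 252 to 252 and 441. Without replicate 8 the 2-fold counts were 41 and 184.

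A fit on length and GC content took much more of the variance of the contrast before normalisation than after it. A smooth fit on both features took 59.2% of the variance of the difference on log2 CPM (counts scaled to library size), and 3.64% on CQN values (13132 genes with a transcript length). On log2 CPM the median difference over 8 length classes ran from 0.53 at a median of 956 nt to -0.62 at a median of 8725 nt. The same classes on CQN values had medians of 0.02 and -0.05. Across GC classes the log2 CPM median went from -0.45 at 37.3% GC to 0.57 at 63.8% GC, whereas on CQN values no class median was beyond 0.09. The calls on CQN values still differed between classes: lower genes made up 6.04% of the second and 26.2% of the longest length class, and higher genes 25.2% of the second and 9.87% of the highest GC class. On log2 CPM 3835 genes (27.9%) were higher and 3558 (25.9%) lower. Of the 2195 genes higher on CQN values, 1089 (49.6%) were also higher on log2 CPM and 267 were lower there. Of the 1922 lower genes, 1368 (71.2%) were also lower on log2 CPM and 204 were higher.

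**Figure D2:**
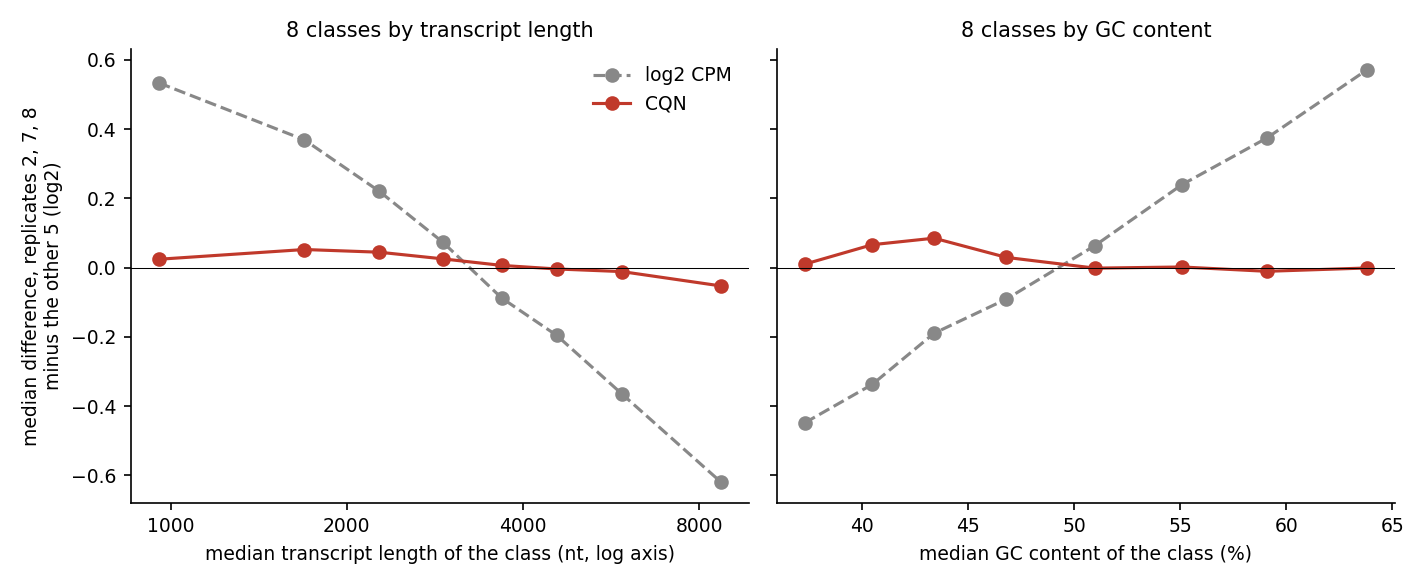
Median difference between replicates 2, 7, 8 and the other 5 (log2) in 8 classes of genes by transcript length (left, nt, log axis) and by GC content (right, %). The dashed grey line, log2 CPM, runs from 0.53 to -0.62 with length, and the red line, CQN values, stays within 0.09 of 0.

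The 2-fold genes of either direction had transcripts with longer 3′ untranslated regions than most. A transcript length was found for 68 of the 78 and 230 of the 252. The median transcript was 3284 nt over all measured genes, 4828 nt for the higher and 5497 nt for the lower 2-fold genes, and the median 3′ untranslated region was 1333, 3382 and 3401 nt. Both sets were of low abundance, with medians of 1.74 and 7.25 CPM against 28.8 CPM over all genes. For the 78 higher genes the median difference was 1.17 on CQN values but 0.40 on log2 CPM, and 40 of the 78 were also higher on log2 CPM. For the 252 lower genes the medians were -1.37 and -1.24, and 212 (84.1%) were also lower on log2 CPM. Log2 CPM carries a pseudocount of 0.5, which understates the differences of low genes, and its part in these medians was not separated from that of the normalisation.

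Ribosomal protein genes, on which the libraries were chosen, show what the normalisation did to a family of short genes. Of the 79 listed, 78 were measured, and on log2 CPM every one had a positive difference, from 0.29 to 1.04 with a median of 0.73. On CQN values the median was 0.09, and the family spread from -0.31 for RPS2, part of the small subunit (0.59 on log2 CPM), to 1.13 for RPL36A of the large subunit. In this family 32 genes (41.0%) were higher and 18 (23.1%) lower. RPL36A had CQN values of 6.06, 6.00, 6.07, 6.22 and 6.09 in replicates 1, 3, 4, 5 and 6, and of 7.26, 6.84 and 7.56 in replicates 2, 7 and 8. RPL28 and RPL27A, also of the large subunit, differed by 0.93 and 0.92. RPL36A and RPL27A overlap other listed genes, and ribosomal proteins have many processed pseudogenes, so their counts depend on how shared reads were assigned. RPS15 and RPL29 were lower on CQN values, at -0.28 and -0.22, although each was higher on log2 CPM, at 0.84 and 0.75. The differences of ribosomal protein genes thus spread more widely on CQN values than on log2 CPM.

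**Figure D3:**
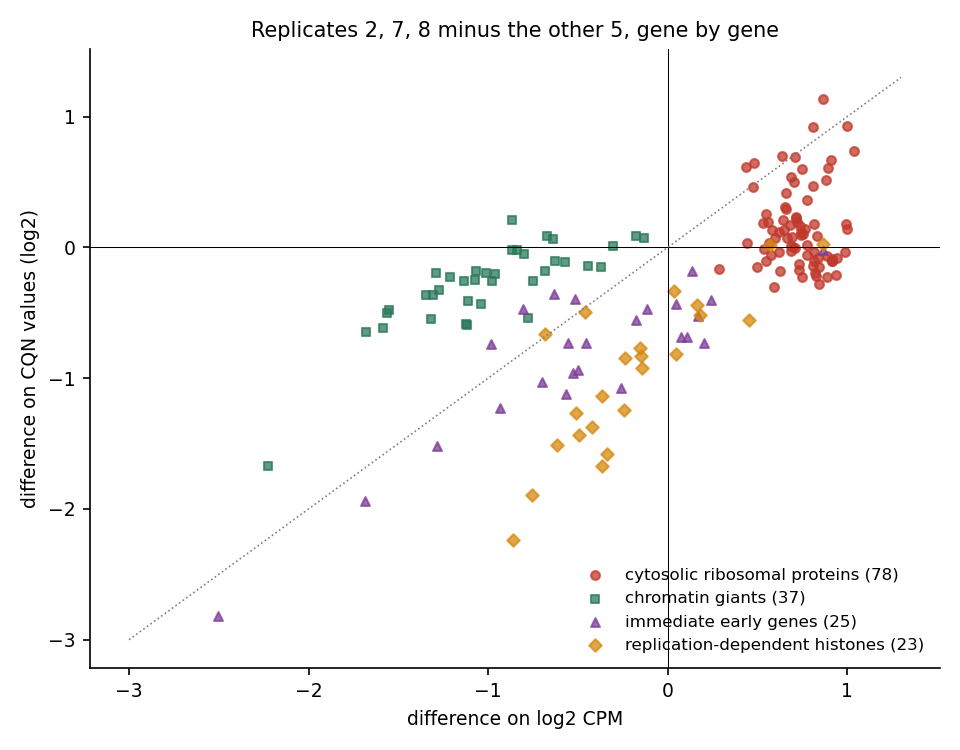
Difference between replicates 2, 7, 8 and the other 5 on log2 CPM (x axis) and on CQN values (y axis, log2) for the genes of 4 lists, 1 point per gene. The dotted line marks equal values. Ribosomal proteins (red) all lie right of 0 but spread on both sides of 0 on the y axis, while the other lists lie mostly below 0 on the y axis.

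Respiratory chain subunits had the highest median of the 42 programme lists on CQN values. Complexes II to V, which pass electrons to oxygen and make ATP, had 41 measured members with a median difference of 0.14 (0.66 on log2 CPM, and 0.02 over all genes on CQN values). Of these 19 (46.3%) were higher and 7 lower. ATP5G3 (chromosome 2, 176040986 to 176046490, hg19, minus strand, 5 exons), a membrane subunit of ATP synthase, had CQN values of 7.22 to 7.49 in the other 5 libraries, with 8.16, 7.94 and 8.57 in replicates 2, 7 and 8. Its mean of 8.22 stood against 7.29 ± 0.11 (SD, n = 5), and its CPM were 173, 176 and 219 against 121 to 143. UQCRB and UQCRQ of complex III differed by 1.06 and 0.73, with UQCRB at 6.35 to 6.56 in the other 5 and at 7.42, 7.12 and 7.92 in the chosen libraries. CYCS, the electron carrier cytochrome c, differed by 0.61 on CQN values and 0.04 on log2 CPM. The 7 lower members included CYC1 (-0.37) and COX5B (-0.23), both of which were positive on log2 CPM (0.57 and 0.70).

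Complex I, the NADH dehydrogenase at the entry of the chain, had 15 of 38 measured subunits higher (39.5%) and 2 lower, with a median of 0.11. NDUFC2 and NDUFA4 had the largest differences in that list, 0.92 and 0.81. Proteins of the mitochondrial ribosome were higher in 24 of 75 (32.0%) and lower in 6, led by MRPL22 (0.91) and MRPS16 (0.68). The median difference of that list was 0.07, and its library medians overlapped, with replicate 5 (0.045) above replicates 2 (0.037) and 8 (0.010). The library medians of complex I and of complexes II to V did not overlap between the chosen libraries and the other 5, but the median deviations of replicate 7 from the mean of the 5, 0.05 and 0.09, were below those of replicates 2 and 8.

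Proteasome, core spliceosome and DNA replication genes had small positive medians on CQN values, of 0.09, 0.07 and 0.05, against 0.02 over all genes. Of all genes 16.0% were higher and 14.0% lower. In the proteasome, the barrel-shaped protease that degrades tagged proteins, 12 of 37 subunits were higher (32.4%) and 2 lower. PSMA5, a subunit of its outer ring, had values of 7.14 to 7.41 in the other 5 libraries and 8.13, 7.81 and 8.41 in replicates 2, 7 and 8, a difference of 0.89 (0.47 on log2 CPM). The core spliceosome list had 12 of 31 higher (38.7%) and 3 lower, with LSM5 (0.77) and SNRPE (0.64) first. Among 43 DNA replication genes 13 were higher and 4 lower. DUT, which removes dUTP, was at 8.10 to 8.16 in the other 5 and at 8.74, 8.59 and 8.97 in the chosen libraries.

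Several of the single genes with the widest upward gap had a long annotated 3′ untranslated region, and others, such as ANKHD1 (434 nt), did not. CAMTA1 (chromosome 1, 6845384 to 7829766, hg19, plus strand, 23 exons), a calmodulin-binding transcription activator, was at 4.36, 4.33, 4.24, 4.38 and 4.27 in replicates 1, 3, 4, 5 and 6 and at 5.35, 5.13 and 5.74 in replicates 2, 7 and 8. MCTS1, which takes part in translation reinitiation, lay at 4.35 to 4.66 and then at 5.75, 5.41 and 6.27, with 8898 of its 9577 nt annotated as 3′ untranslated. KIN, a DNA- and RNA-binding protein, was at 3.72 to 3.95 against 4.70, 4.70 and 4.89, but differed by only 0.13 on log2 CPM, where its libraries overlapped. DCUN1D5 likewise differed by 1.22 on CQN values and 0.08 on log2 CPM. ANKHD1 (chromosome 5, 139781399 to 139919441, plus strand, 34 exons) was at 3.17 to 3.43 against 4.62, 4.34 and 4.91. The read-through entry ANKHD1-EIF4EBP3 shares its exons and had the widest upward gap of any gene, so the reads of the 2 entries cannot be told apart.

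Small nucleolar RNA entries were among the upward gaps too. SNORD87 was at 4.66 to 5.55 in the other 5 libraries and at 6.44, 6.42 and 6.64 in the chosen ones, with a mean of 0.65 CPM. SNORD81 and SNORD38B differed by 1.46 and 1.65. Each lies inside a listed host gene, and the libraries were made from polyadenylated RNA, so reads of the host and of the small RNA cannot be told apart. Of the 14 host genes of small nucleolar RNAs, 4 were higher and none lower, and replicate 7 deviated most from the mean of the 5 (0.34, with 0.01 in replicates 2 and 8).

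**Figure D4:**
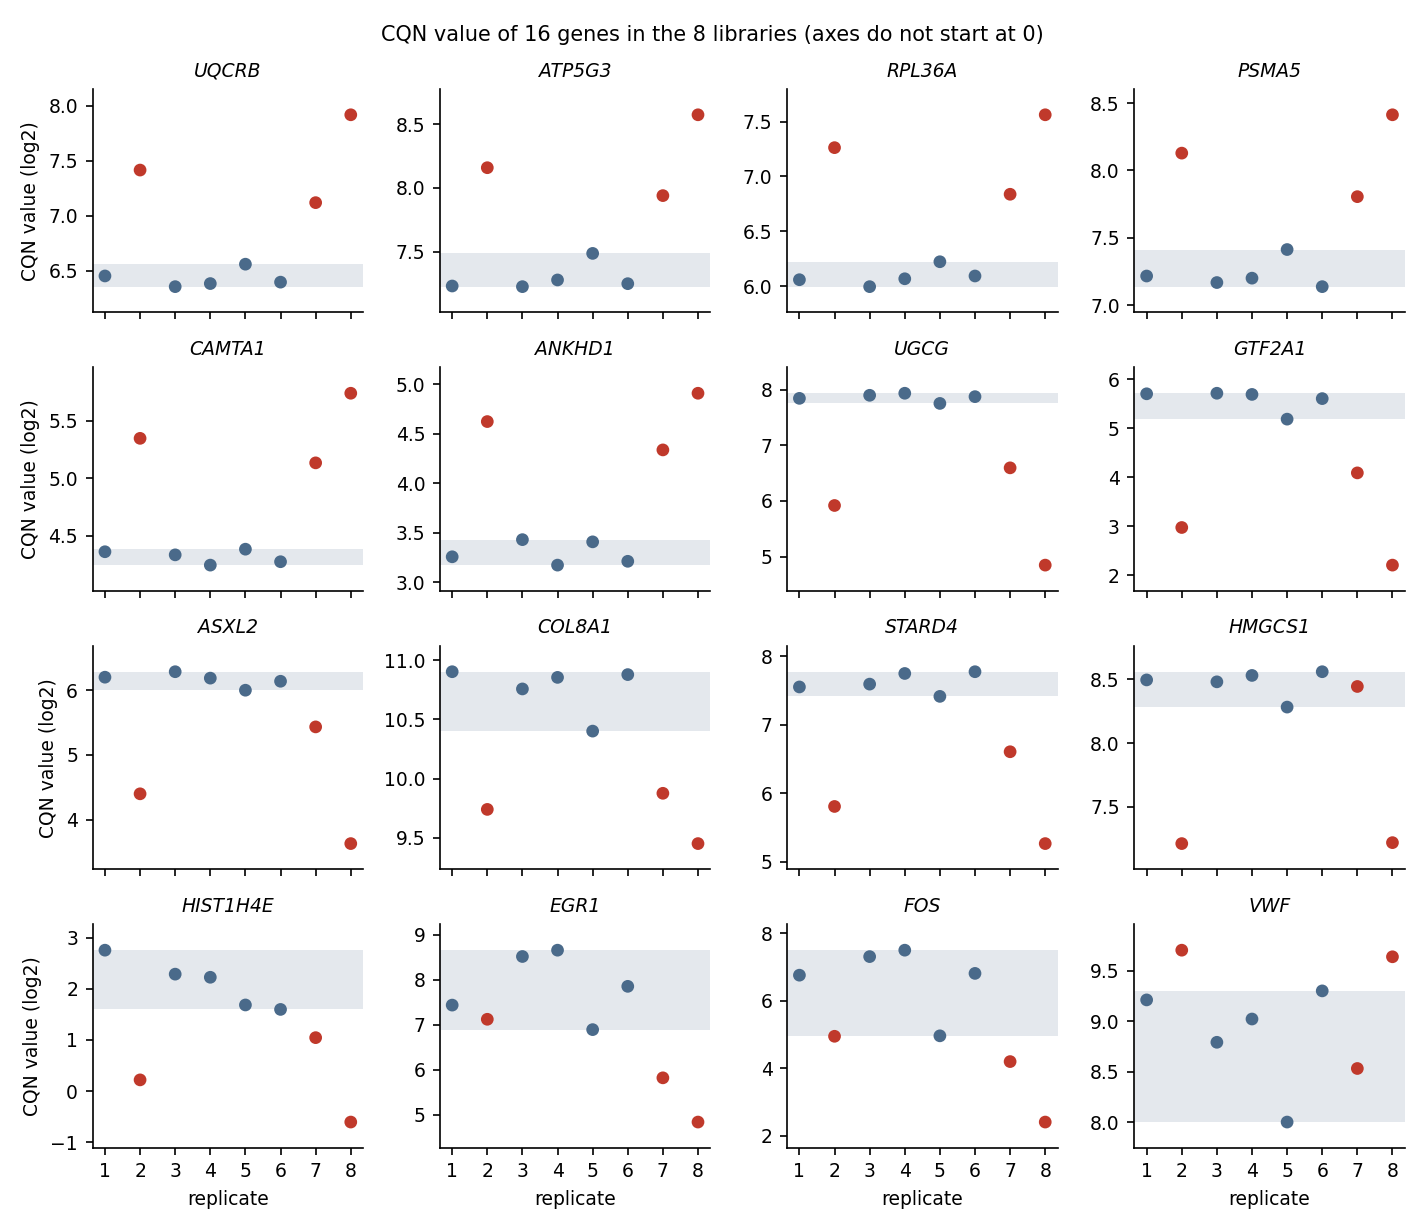
CQN values (log2) of 16 genes in each replicate, 1 point per library. Red marks replicates 2, 7 and 8, and the grey band spans the lowest to the highest of the other 5. Values of replicate 7 mostly lie between the band and replicates 2 and 8, and for HMGCS1 and VWF they lie inside it.

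Replication-dependent histones had the lowest median of the 42 programme lists on CQN values. These genes are made in S phase, mostly carry no poly(A) tail, and are counted in a polyadenylated library only through the minority of transcripts that have one or through variant ends. Of 27 listed, 23 were measured, and 0 were higher and 11 (47.8%) lower, against 16.0% and 14.0% of all genes. The median difference was -0.84 on CQN values and -0.25 on log2 CPM. On log2 CPM 7 of the 23 were positive, with 3 called higher and 2 lower. Other lists had lower medians on that scale, such as the large chromatin regulators at -1.01. Summed over the 27 listed genes, the level was not lower in the chosen libraries. It ran from 119.0 to 136.6 CPM there and from 92.2 to 119.2 CPM in the other 5. HIST1H4E, a histone H4 gene (chromosome 6, 26204873 to 26205249, hg19, plus strand, 1 exon), was at 2.76, 2.29, 2.23, 1.69 and 1.60 in replicates 1, 3, 4, 5 and 6 and at 0.22, 1.05 and -0.61 in replicates 2, 7 and 8. HIST1H1E, a linker histone, was at 2.94 to 3.69 and then at 1.85, 2.74 and 0.97. HIST1H2BC and HIST1H2BJ, of the H2B family, differed by -1.14 and -0.83. HIST4H4 had the largest difference of the list (-2.24), but replicate 7 (1.67) lay inside the range of the 5. Replicate 7 deviated least from the mean of the 5 in the list median, by -0.36 against -1.02 and -1.33 in replicates 2 and 8. The counts are small (a mean of 1.0 CPM for HIST1H4E).

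The promoters of 21 measured histone genes were found in the RefSeq promoter table (GRCh38.p14, 250 bases before the start), and 2 are shown because they carry the elements known from histone promoters. A CCAAT box (CCAAT on either strand) was present in 18 of 21 (85.7%), against 34.9% of 10567 promoters of measured genes. The octamer ATTTGCAT was present in 9 of 21 (42.9%) and in 4 of 6 H2B promoters, against 1.24% of all. These matches are descriptions and not shown binding. Below, HIST1H2BJ (chr6:27132796-27133045, minus strand) has its CCAAT boxes and octamer in capitals, the octamer 47 to 40 bases before the start, and HIST1H1E (chr6:26156079-26156328, plus strand) has its CCAAT box in capitals, 54 to 50 bases before the start.
HIST1H2BJ: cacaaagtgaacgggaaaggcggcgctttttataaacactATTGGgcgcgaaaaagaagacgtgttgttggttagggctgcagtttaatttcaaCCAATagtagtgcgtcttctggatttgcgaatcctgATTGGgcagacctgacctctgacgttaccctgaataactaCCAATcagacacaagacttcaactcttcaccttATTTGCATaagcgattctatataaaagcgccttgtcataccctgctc
HIST1H1E: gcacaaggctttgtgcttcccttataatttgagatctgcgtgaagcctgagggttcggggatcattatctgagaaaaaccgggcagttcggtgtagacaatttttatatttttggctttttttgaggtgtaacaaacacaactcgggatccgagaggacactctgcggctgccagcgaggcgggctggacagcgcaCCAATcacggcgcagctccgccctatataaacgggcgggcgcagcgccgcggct

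Immediate early genes, which cells switch on within minutes of serum, growth factors or mechanical stress, were the second lowest list on CQN values. Of 27 listed, 25 were measured, all 25 had a negative difference on CQN values, and the median was -0.73. Of these 12 (48.0%) were lower and 0 higher, against 14.0% and 16.0% of all genes. On log2 CPM the median was -0.50, but 8 of 25 were positive, and only 4 genes were lower and 2 higher. On that scale 25.9% of all genes were lower and 27.9% higher, so these calls show no excess. FOS, a subunit of the AP-1 transcription factor, was at 6.76, 7.31, 7.50, 4.97 and 6.82 in replicates 1, 3, 4, 5 and 6 and at 4.95, 4.20 and 2.41 in replicates 2, 7 and 8. Replicate 5 thus lay just above replicate 2, and the gap between them was 0.01. JUNB, a partner of FOS, was at 7.28 to 8.16 and then at 6.78, 6.89 and 6.31. DUSP1, a phosphatase that shuts off MAP kinases, was at 9.07 to 9.89 and then at 8.92, 8.31 and 8.62. ZFP36, which binds AU-rich mRNAs, differed by -1.12 and FOSL2 by -1.03. EGR1, a zinc finger factor, had the next largest difference after FOS at -1.94, but replicate 2 (7.12) lay above replicate 5 (6.89). KLF2, a flow-responsive endothelial factor, was lower on CQN values by 0.73 but had a difference of 0.20 on log2 CPM, so its direction depends on the scale. The spread within the other 5 was also wide, with list deviations from 0.03 in replicate 1 to 0.47 in replicate 6.

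The EGR1 promoter is printed because it carries the serum response element, the CArG box, that is known to drive this gene. Both CArG boxes found are in capitals, 105 to 96 and 83 to 74 bases before the start (chr5:138465229-138465478, plus strand, GRCh38.p14). A CArG box was found in 2 of the 18 promoters of measured immediate early genes in the table, against 1.03% of all.
EGR1: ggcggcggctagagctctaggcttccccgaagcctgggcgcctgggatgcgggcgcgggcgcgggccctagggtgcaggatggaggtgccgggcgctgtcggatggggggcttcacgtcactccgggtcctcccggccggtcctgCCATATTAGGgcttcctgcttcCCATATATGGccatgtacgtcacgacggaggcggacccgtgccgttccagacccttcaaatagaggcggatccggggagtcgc

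As a list, cholesterol synthesis genes were low in replicates 2 and 8 and not in replicate 7. These enzymes and regulators are controlled together by the sterol-sensing factor SREBP2. All 25 listed were measured, and 9 (36.0%) were lower and 0 higher, against 14.0% and 16.0% of all genes. The median difference was -0.38 on CQN values and -0.34 on log2 CPM. On log2 CPM 7 of 25 were positive, and the calls did not lean downward, with 5 lower and 6 higher. Of all genes 25.9% were lower and 27.9% higher on that scale. By library, the list median deviated from the mean of the 5 by -0.69 in replicate 2, -0.55 in replicate 8 and -0.02 in replicate 7. HMGCS1, which makes HMG-CoA (chromosome 5, 43289493 to 43313595, hg19, minus strand, 11 exons), showed this as 8.50, 8.48, 8.53, 8.28 and 8.56 in replicates 1, 3, 4, 5 and 6, 7.21 and 7.22 in replicates 2 and 8, and 8.45 in replicate 7. For INSIG1, which holds SREBP2 back when sterols are plentiful, replicate 7 (7.87) lay above the range of the 5. STARD4, a carrier of cholesterol between membranes, was instead low in all 3, at 7.42 to 7.78 in the other 5 and at 5.81, 6.61 and 5.26. DHCR7 and SREBF2, which encodes SREBP2, were lower in all 3, by 0.78 and 0.67.

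The promoters of HMGCS1, INSIG1 and STARD4 are printed since a CCAAT box is a known partner element of SREBP2 sites. A CCAAT box was found in 15 of 18 (83.3%) promoters of this list, against 34.9% of all, and the sterol element TCACNCCAC in 1 of 18 (SREBF2), against 0.795% of all. CCAAT matches on either strand are in capitals, and those on the strand opposite to the printed one read as their reverse complement, ATTGG. In the order printed, the regions are chr5:43313413-43313662 (minus strand), chr7:155297628-155297877 (plus strand) and chr5:111512536-111512785 (minus strand), all in GRCh38.p14.
HMGCS1: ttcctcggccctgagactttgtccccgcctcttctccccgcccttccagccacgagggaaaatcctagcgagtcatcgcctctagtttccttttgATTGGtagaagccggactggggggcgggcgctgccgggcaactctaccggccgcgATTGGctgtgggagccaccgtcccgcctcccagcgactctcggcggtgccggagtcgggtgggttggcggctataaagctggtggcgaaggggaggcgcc
INSIG1: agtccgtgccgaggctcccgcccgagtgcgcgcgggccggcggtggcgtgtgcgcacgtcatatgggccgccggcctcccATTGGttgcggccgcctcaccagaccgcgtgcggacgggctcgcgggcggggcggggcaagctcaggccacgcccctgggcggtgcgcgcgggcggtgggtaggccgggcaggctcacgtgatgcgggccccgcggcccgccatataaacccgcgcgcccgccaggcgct
STARD4: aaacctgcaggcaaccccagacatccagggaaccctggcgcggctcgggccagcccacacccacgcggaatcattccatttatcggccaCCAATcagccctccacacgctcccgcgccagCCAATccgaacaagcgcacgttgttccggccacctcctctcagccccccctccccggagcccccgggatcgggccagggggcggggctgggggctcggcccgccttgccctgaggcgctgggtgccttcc

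Basement membrane and other matrix genes had negative medians on both scales. Of 41 listed, 34 were measured, 9 (26.5%) lower and 1 (COL18A1) higher, with a median of -0.27 (-0.28 on log2 CPM). By library, the list median deviated from the mean of the 5 by -0.26 in replicate 2, -0.40 in replicate 8 and only -0.07 in replicate 7. COL8A1, a short-chain vessel collagen (chromosome 3, 99357440 to 99515577, hg19, plus strand), was at 10.90, 10.76, 10.86, 10.40 and 10.88 in replicates 1, 3, 4, 5 and 6 and at 9.74, 9.88 and 9.45 in replicates 2, 7 and 8. NID2, a nidogen that links laminin to collagen IV, was at 6.98 to 7.16 and then at 5.86, 6.66 and 5.69. COL4A1, the main collagen IV chain, differed by -0.72, and the laminin chains LAMC1 and LAMB1 by -0.27 and -0.23. FBN1 (-0.47) and HSPG2 (-0.71) overlapped through replicate 7. INHBA, a TGF-beta family ligand subunit, was at 7.19 to 7.41 and then at 5.17, 6.81 and 5.16.

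Genes of very large chromatin regulators had a negative median on CQN values as well as on log2 CPM. In a list of 37 such genes, 17 (45.9%) were lower and 0 higher, where lower genes were 14.0% of all measured and 26.2% of the longest length class. Its median was -0.22 on CQN values and -1.01 on log2 CPM, where all 37 were negative. With the remaining trend on length and GC removed, the median was -0.13. ASXL2, a polycomb-associated protein, was at 6.20, 6.29, 6.19, 6.00 and 6.14 in replicates 1, 3, 4, 5 and 6, and at 4.40, 5.43 and 3.63 in replicates 2, 7 and 8. ATRX, a chromatin remodeler, was at 6.49 to 6.68 against 5.97, 5.95 and 5.86. MLL, a histone H3 lysine 4 methyltransferase, differed by -0.62 and EP300, a histone acetyltransferase, by -0.58. Ubiquitin ligases of the HECT and cullin type had 10 of 29 lower and 2 higher, with MYCBP2 (-0.61) and BIRC6 (-0.50) first. MALAT1, an abundant nuclear RNA of a single exon (chromosome 11, 65265233 to 65273939, hg19, plus strand), was at 10.41, 10.86, 10.63, 10.56 and 10.78 against 9.09, 10.14 and 8.85, which in CPM was 2216 to 3118 against 434, 1204 and 319. Of the 11 nuclear long noncoding RNAs measured, 2 were lower, and the list median overlapped.

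Some of the genes with the widest downward gaps were about as low on log2 CPM as on CQN values, such as UGCG (-1.88 and -2.07) and GTF2A1 (-2.29 and -2.49), and others were not, such as GDF7 (-1.11 and -2.06) and NNAT (-0.66 and -1.69). UGCG, which makes glucosylceramide (chromosome 9, 114659206 to 114695433, hg19, plus strand, 9 exons), was at 7.84, 7.90, 7.93, 7.75 and 7.87 in replicates 1, 3, 4, 5 and 6 and at 5.92, 6.59 and 4.85 in replicates 2, 7 and 8. In CPM its lowest value among the other 5 was 100.1, against at most 47.1 in the chosen libraries. GTF2A1, a subunit of the general factor TFIIA, was at 5.19 to 5.72 against 2.98, 4.09 and 2.21. From the lists rather than by gap, CTNND1, which encodes p120-catenin of the endothelial adherens junction, was at 3.85 to 4.47 against 2.27, 3.10 and 1.56 and overlaps 1 other listed gene. MYO9A, an unconventional myosin, was at 4.91 to 5.13 against 3.27, 4.09 and 2.65. ZBED6 had the largest difference of all, -3.09 (4.53 to 4.86 against 1.74, 2.72 and 0.54), and it lies inside another listed gene. TMED8, a TMED family member, differed by -3.08 on CQN values and -1.92 on log2 CPM. In the 6 genes from UGCG to TMED8 described here replicate 7 lay between the other 5 and replicates 2 and 8.

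Barrier transporters and mitotic genes had negative medians too. Among 23 measured transporters of the blood-brain barrier 6 (26.1%) were lower and 0 higher, with a median of -0.22. TFRC, the transferrin receptor, was at 8.69 to 9.10 in the other 5 and at 7.86 and 7.54 in replicates 2 and 8, but at 8.91 in replicate 7. The efflux pumps ABCC1 and ABCC4 were lower, by 0.40 and 0.31, while ABCB1 (-0.22) and ABCG2 (0.36, but -0.13 on log2 CPM) overlapped, and SLC2A1, the glucose carrier, differed by -0.03 (0.14 on log2 CPM). Of 40 mitotic genes 11 (27.5%) were lower and 4 higher, with a median of -0.11, but the library medians of this list overlapped. The mitotic list deviated from the mean of the 5 by 0.03 in replicate 2, -0.16 in replicate 7 and -0.15 in replicate 8. ANLN, which organises the cleavage furrow, differed by -0.58 and CENPE, a kinetochore motor, by -0.45, while BIRC5 and CDK1 were higher by 0.32 and 0.30. For CDK1 the difference was -0.06 on log2 CPM.

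Endothelial identity was not shifted as a whole. Of 35 genes listed, 32 were measured, 1 (FLT1, a VEGF receptor, at 0.31 but at -0.73 on log2 CPM) was higher, 3 were lower, and the median difference was -0.01. The list set replicates 5 and 7 apart instead, with deviations of -0.22 and -0.32, whereas the other 6 ran from -0.003 (replicate 3) to 0.15. VWF, the clotting glycoprotein stored by endothelial cells, was at 9.21, 9.70, 8.79, 9.02, 8.00, 9.30, 8.53 and 9.64 in replicates 1 to 8. CLDN5, the main claudin of the barrier, was lowest in replicates 7 (7.86) and 5 (8.06) and highest in replicates 2 (9.07) and 8 (9.04). PECAM1 was at 9.43 and 9.82 in replicates 2 and 8 and at 8.86 in replicate 7, inside the range of the 5 (8.61 to 8.88). CDH5, VE-cadherin, was present in all libraries at 9.35 to 10.17.

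The line's label was checked against markers of other cell types. AQP4 (astrocytes), P2RY12 (microglia) and STMN2 (neurons) had 0 counts in all 8 libraries, and PTPRC (leukocytes) was at most 0.61 CPM. The minimum count was met by 4 of 8 neuron, 3 of 8 astrocyte, 1 of 8 microglia and leukocyte, 6 of 9 mural cell, 4 of 8 fibroblast, 5 of 8 epithelial and 0 of 5 red cell markers. Summed over all 8 neuron markers, mostly MAP2, the level ran from 36.8 to 51.2 CPM in the chosen libraries and from 54.7 to 90.7 CPM in the other 5. The microglia and leukocyte sum, mostly CD68, ran from 59.7 to 85.1 against 47.8 to 54.3, and the epithelial sum, mostly KRT18, from 408 to 511 against 318 to 397. On CQN values these 3 list medians overlapped between the chosen libraries and the other 5. Astrocyte (350 to 531 against 494 to 586 CPM), mural cell (50.2 to 72.9 against 70.8 to 76.3) and fibroblast sums (160 to 213 against 148 to 198) overlapped on CPM. In bulk RNA fewer cells of a type and less RNA per cell cannot be told apart. The part of these markers and of total counts in the differences above was not tested.

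**Figure D5:**
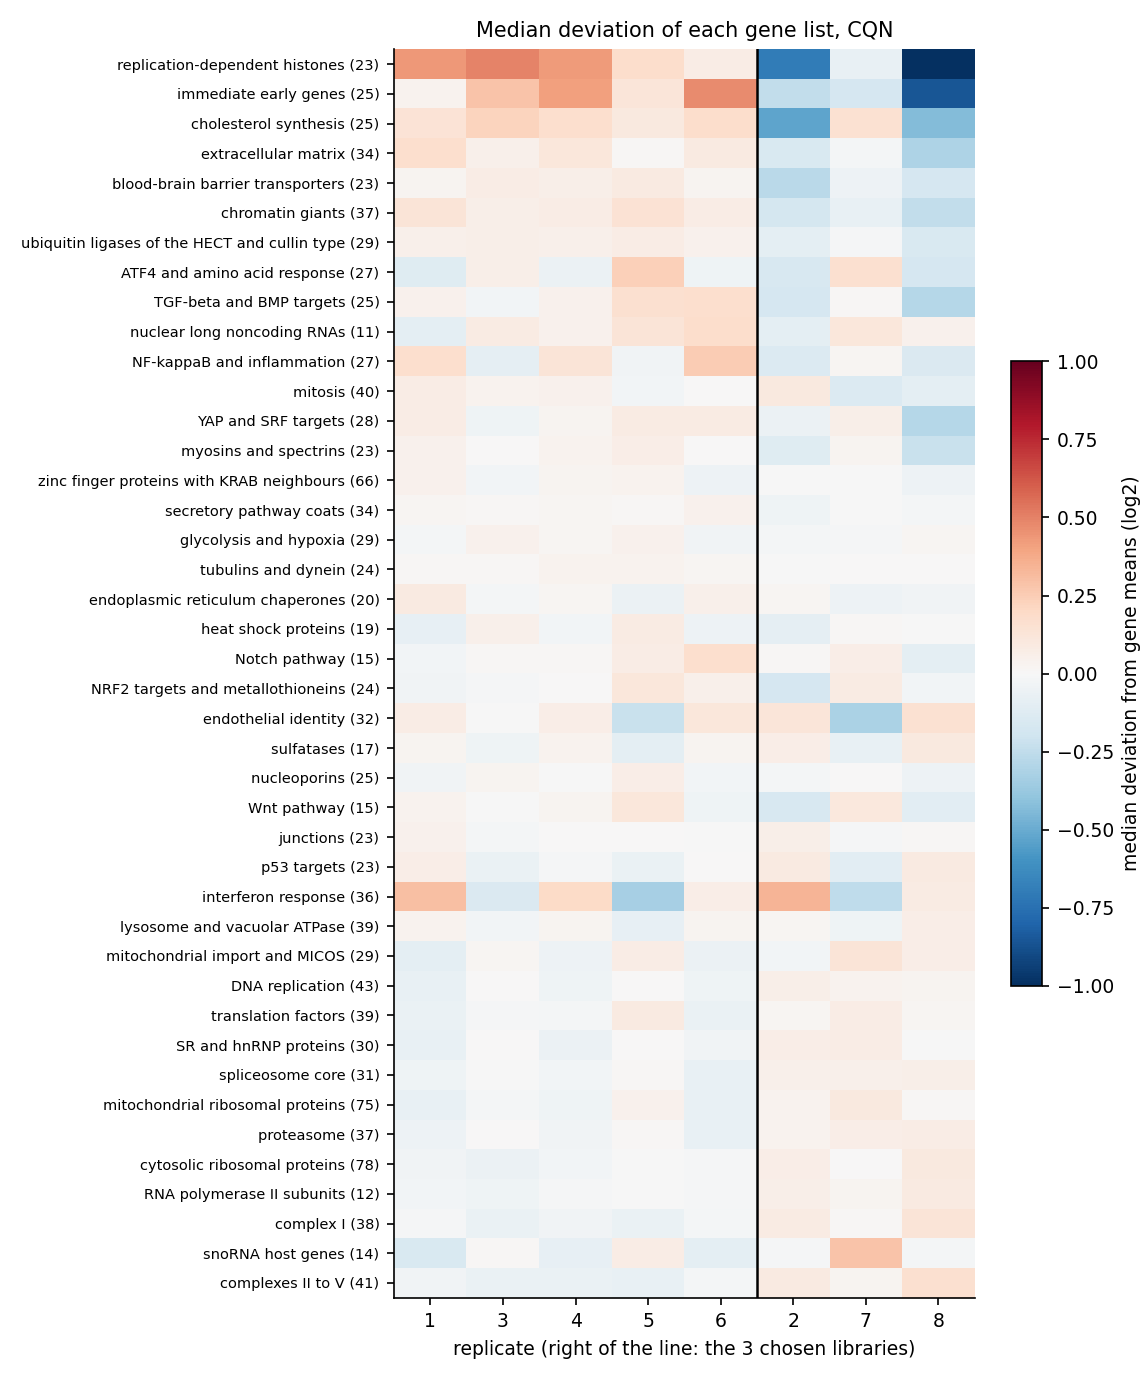
Median deviation of each gene list from the gene means over all 8 libraries (CQN values, log2, colour), with the number of measured genes in brackets and lists ordered by the difference of replicates 2, 7 and 8 from the other 5. The top rows are lowest in replicates 2 and 8, and replicate 7 departs from them for cholesterol synthesis, endothelial identity and interferon response.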

How the data were processed

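Per the labels' protocols, the 8 libraries of polyadenylated hCMEC/D3 RNA came from Illumina's TruSeq RNA kit (version 2). CASAVA 1.9, TopHat2 2.0.6, HTSeq and the hg19 build are named in the submitters' processing notes. Per the file headers, the authors deposited raw counts per gene and CQN values, which are log2 values judging by their range. The parameters, the length and GC table behind them and the use of strand are not given in the sources used here. The deposited counts, all even, were halved for the Wilson intervals. CPM were computed from the counts with TMM-scaled totals (edgeR 4.0.16, R 4.3.3) and logged with a pseudocount of 0.5. All other steps used Python 3.11.15 with numpy 2.4.6, pandas 2.3.3 and matplotlib 3.10.9.

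The libraries, gene lists and named genes were chosen with earlier results of these data known. For this reason no p-value was computed. The rule named the 15 widest gaps in each direction, the 5 largest and 5 lowest mean differences, the 3 members of each list with the largest differences, the 3 genes farthest above the other 7 libraries in replicates 2, 7 and 8, and a few fixed genes, 193 in all. Other members are named after their values were seen. Some items are not reported here. Transcript lengths, exons and untranslated regions came from the canonical transcripts of GENCODE 44 lifted to GRCh37 (13132 of 13727 genes), which need not be those the authors used. The length and GC fit was a polynomial of degree 4. Coordinates of genes are those of the deposited table, printed 1-based. The alternatives were another scale, a stricter or no minimum count, trend removal, centring, medians and leaving out each replicate. The counting and the fit were tested on simulated data.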

Additional observations from a re-analysis of the deposited data

Results flagged for a closer look

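In 89 screened sets of 8 library values, 1 had a library standing apart by Dixon's ratio, where chance alone gives about 1 in 20. The median deviation of the YAP and SRF target genes, which respond to cell tension and spreading, was -0.28 in replicate 8 and -0.06 to 0.08 in the other 7 libraries, a ratio of 0.618 and above the 95% critical value. Of its 28 measured genes 2 were lower and 1 higher by the definition of the report. LATS2, a kinase that restrains YAP, was at 7.19 to 7.34 in the other 5 libraries and at 6.39, 6.92 and 6.09 in replicates 2, 7 and 8.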

How the results depend on the processing

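The counts of 2195 higher, 1922 lower, 78 higher and 252 lower by at least 2-fold depended on the scale and on replicates 7 and 8. On log2 CPM they were 3835, 3558, 126 and 595. Requiring the call on both scales, an alternative chosen after seeing the data, left 1089 and 1368, and 40 and 212 at 2-fold. A minimum count of 100 left 38 and 144 at 2-fold. Leaving out each replicate gave 2268 to 4195 higher and 1993 to 3621 lower, counts that by their definition can only rise. At 2-fold it gave 41 to 252 higher and 184 to 441 lower. The highest counts were without replicate 7, and the lowest 2-fold counts, 41 and 184, without replicate 8. Removing the remaining length and GC trend, no minimum count, median centring and medians in place of means moved none of the 4 counts by more than 1.5 times. Among the lists and the genes named by the rule whose libraries did not overlap on CQN values, the sign turned on log2 CPM for tubulins and dynein (0.391, and without 1 replicate each -0.0581 without replicate 8 to 0.00712 without replicate 7), secretory pathway coats (0.0154), HNRNPA3 (-0.0612), MDM2 (-0.21), SDF2L1 (0.83), LAMP2 (-0.47) and MYO5B (-0.21). It also turned for lists and genes that overlapped or were named outside the rule, such as ABCG2, KLF2, CDK1, FLT1, RPS15 and CYC1. The cause was not tested. No paired analysis was possible because all libraries form 1 group. Counts below about 1 CPM, as for several histones, limit the precision of their differences.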

Other observations

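Several genes stood high in 1 or 2 of the chosen libraries and not in the rest. ARSI, an arylsulfatase, was at 6.78 in replicate 2 and 6.01 in replicate 8, and at 1.87 to 2.36 in the other 6, replicate 7 among them. USP6NL, a GTPase-activating protein of endosomal traffic, was at 8.49 in replicate 2 and 4.71 to 5.23 elsewhere. CAPN5, a calpain protease, was at 7.22 in replicate 2 and 4.92 to 5.13 elsewhere. In replicate 8, TNFRSF6B, a decoy receptor, was at 6.42 against 2.21 to 3.74, and it overlaps 2 other listed genes. HIVEP3 was the gene farthest above the others in replicate 7, at 3.38 against 2.13 to 2.43.

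Interferon response genes differed among the libraries. Over 36 measured genes the list deviated by 0.30, 0.34, -0.15, 0.19, -0.33, 0.06, -0.25 and 0.08 in replicates 1 to 8. Only 1 of the 36 was higher and 0 were lower in replicates 2, 7 and 8. GBP2, an interferon-induced GTPase, was at 5.71, 6.12, 4.99, 5.34, 4.77, 5.50, 5.16 and 6.07 in replicates 1 to 8. Genes of the amino acid response were highest in replicates 5 and 7, with list deviations of 0.24 and 0.16 against -0.17 to 0.06 in the other 6.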
